A study of Homo sapiens with 8 samples.

Results

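The small nucleolar RNA (snoRNA) host genes described here are 10 noncoding genes, GAS5, SNHG1, SNHG5, SNHG6, SNHG7, SNHG8, SNHG12, SNHG15, SNHG16 and ZFAS1. They were taken by gene name from 20565 annotated genes, of which 17404 had a read, and held 831 of 506946 transcript models. Of those 831 models, 512 had a read. The models come from direct RNA sequencing of 3 human cell lines, K562 with 2 libraries, HepG2 with 3 and GM12878 with 3. In this assay native RNA molecules pass through a nanopore without being copied, and each read was assigned to a transcript model by TALON. K562 is a myelogenous leukaemia line, although its labels give the same cell type, lymphoblastoid cell line, as those of GM12878. HepG2 is a hepatocellular carcinoma line and GM12878 an Epstein-Barr virus-transformed B-lymphoblastoid line. The labels name total RNA, line-specific growth and no treatment. Separate cultures are not mentioned for the libraries of a line, and a p-value therefore speaks only for how these libraries vary, possibly for technical reasons. The series was made for a comparison of this platform with PacBio, whose data were not analysed here.

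Most human snoRNAs are cut out of introns. Box C/D snoRNAs guide 2'-O-methylation of ribosomal RNA and box H/ACA snoRNAs guide its pseudouridylation. The host gene is transcribed and spliced, the debranched intron is trimmed to the snoRNA, and the joined exons remain as a long noncoding RNA. Many of these genes start with a pyrimidine tract like that of ribosomal protein genes, and many of their spliced RNAs are degraded by nonsense-mediated decay. Several, among them GAS5 and ZFAS1, are studied for roles in cell growth and cancer.

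In GRCh38 (GENCODE release 29), ZFAS1 spans chr20:49278178-49295738, SNHG16 chr17:76557766-76565348 and SNHG8 chr4:118278709-118279823 on the plus strand. On the minus strand lie GAS5 at chr1:173863900-173868882, SNHG12 at chr1:28578538-28583132, SNHG5 at chr6:85660950-85678748, SNHG15 at chr7:44983023-44986961, SNHG7 at chr9:136721366-136728184 and SNHG1 at chr11:62851988-62855914. Genes of snoRNAs and of other small RNAs (snRNA, miRNA, misc_RNA and scaRNA) were left out of the search for overlaps. No other annotated gene overlaps a host on its own strand. On the opposite strand, 6 hosts overlap other genes, from 8 bases of TRNAU1AP in SNHG12 to 2685 bases of FAM69B in SNHG7, and the sources used here do not state whether reads were assigned by strand.

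The RefSeq gene table placed 37 snoRNA genes inside the 10 hosts, 28 of them box C/D, 8 box H/ACA and 1 without a symbol of either kind. GAS5 held 11, SNHG1 9, SNHG12 4, SNHG16 and ZFAS1 3 each, SNHG5 and SNHG7 2 each, and the other hosts 1 each. These genes span 60 to 134 bases, whereas the shortest known model with a read had 300 bases, so the values below are those of the host RNAs and not of the snoRNAs. The snoRNAs of ZFAS1 and 1 of those of SNHG5, the 2 most read hosts, are shown because the exons described later join on either side of them. In the sequences, capitals mark box C (TGATGA) near the 5' end and box D (CTGA) near the 3' end, the motifs by which box C/D snoRNAs are bound by their proteins. SNORD12C at chr20:49278940-49279028, SNORD12B at chr20:49280319-49280409 and SNORD12 at chr20:49280683-49280772 lie on the plus strand of GRCh38 inside ZFAS1. SNORD50B lies in SNHG5 on the minus strand at chr6:85677589-85677658. All sequences are those of GENCODE release 29.
SNORD12C: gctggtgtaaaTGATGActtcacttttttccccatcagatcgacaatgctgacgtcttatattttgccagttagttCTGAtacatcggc
SNORD12B: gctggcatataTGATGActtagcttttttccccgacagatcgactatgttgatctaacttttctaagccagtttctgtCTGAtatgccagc
SNORD12: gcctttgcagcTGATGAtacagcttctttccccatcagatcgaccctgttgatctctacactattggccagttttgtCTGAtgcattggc
SNORD50B: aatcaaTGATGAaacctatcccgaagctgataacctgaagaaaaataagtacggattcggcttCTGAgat

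Libraries held between 70374 reads (GM12878 replicate 3) and 461497 reads (HepG2 replicate 1), so the low hosts rest on few reads. Of each line's 6 marker genes, all had reads in their own line. Together they took 3.05 to 3.77% of reads for K562 markers in K562, 8.03 to 9.53% for HepG2 markers in HepG2 and 1.08 to 1.13% for GM12878 markers in GM12878. Markers of another line stayed at or below 0.0213% of a library, the highest being GM12878 markers in HepG2, with 198 reads in 2 genes and the other 4 at 0. The 2 K562 libraries differed more than other pairs of the same line, with a chi-square per degree of freedom over genes of 3.53, against 1.40 to 2.22 in HepG2 and 1.23 to 1.39 in GM12878.

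The 10 host genes together took the largest share of reads in K562, at 0.233 and 0.275% of the 2 libraries. The share was 0.189, 0.181 and 0.149% in HepG2 and 0.137, 0.149 and 0.145% in GM12878. The K562 libraries lay above all others, while HepG2 and GM12878 overlapped at 0.149%. By line the share averaged 0.254 ± 0.0296% in K562 (SD, n = 2), 0.173 ± 0.0211% in HepG2 (n = 3) and 0.144 ± 0.00620% in GM12878 (n = 3), given as a description with no test. These are shares of a bulk RNA sample, in which fewer cells expressing a gene and less of its RNA per cell cannot be told apart.

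Levels are given in reads per 1000000 reads of tested genes with TMM scaling (CPM). To set the hosts beside each other, they were also divided by the read-weighted model length in kilobases. Each read here is a native molecule, so this division places hosts with long models lower than a count of molecules would. On this per-length scale SNHG5 was first in K562, at 1447 ± 48.2 CPM per kb, and SNHG6, ZFAS1 and GAS5 followed with overlapping ranges. SNHG5 and ZFAS1 led in HepG2 at 981 ± 134 and 848 ± 123 CPM per kb, with overlapping ranges, and SNHG16 came next at 362 ± 107 CPM per kb. ZFAS1 was first in GM12878, at 500.3 ± 16.1 CPM per kb, and its range lay above that of SNHG5, at 439 ± 65.0 CPM per kb. The lowest were SNHG12 at 21.7 ± 15.1 CPM per kb in K562, SNHG15 at 2.37 ± 4.11 in HepG2 and SNHG1 at 23.3 ± 20.9 in GM12878. Among the other neighbours in the order, ranges overlapped except between SNHG16 and SNHG15 in K562, and between SNHG8, GAS5, SNHG1 and SNHG12 in HepG2, each clear of the next. In K562, SNHG5 and SNHG6 did not overlap either, nor did ZFAS1 and SNHG16 in HepG2 on the per-length scale. In undivided CPM, ZFAS1 (383 ± 137) was above SNHG6 (292 ± 45.8) in K562. The HepG2 ranges of ZFAS1 (483 to 640 CPM) and SNHG16 (332 to 613 CPM) then overlapped. SNHG16 was 5th in K562 in undivided CPM (216 ± 21.2) and 7th on the per-length scale. In GM12878 it was 4th in undivided CPM and 6th on the per-length scale.

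**Figure D1:**
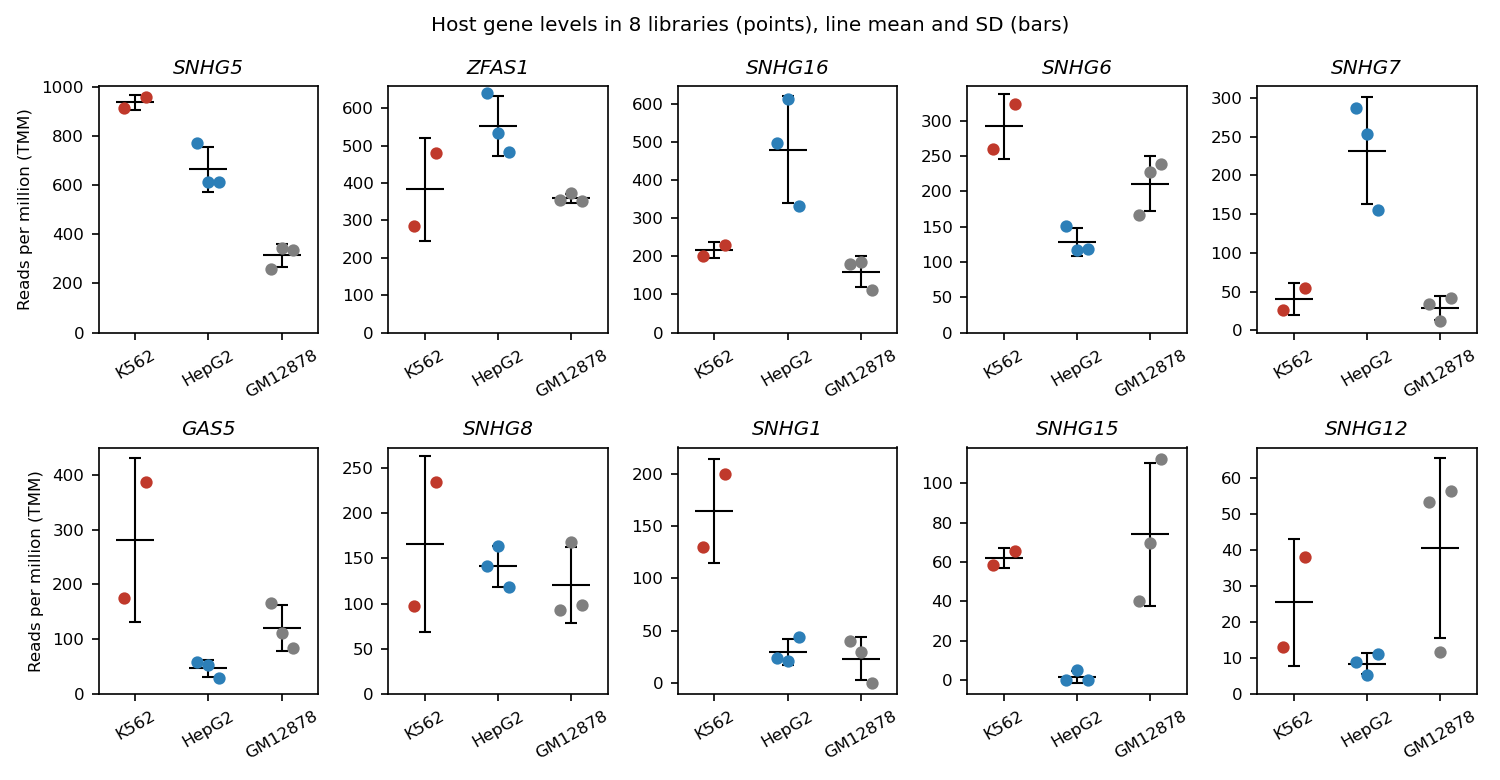
Level of each host gene in CPM (vertical axes, linear) in K562, HepG2 and GM12878, with 1 point per library and bars for the line mean and SD. SNHG7 and SNHG16 are highest in HepG2, GAS5, SNHG1 and SNHG5 in K562, and SNHG15 is nearly without reads in HepG2, where 1 read was counted.

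All 10 host genes passed the filter on low counts, and a gene was called when edgeR's quasi-likelihood test gave an adjusted p under 0.05 over 4778 genes and the fitted change was at least 2-fold. K562 differed from HepG2 at 6 of the 10, with 4 higher in K562 (GAS5, SNHG1, SNHG6 and SNHG15) and 2 lower (SNHG7 and SNHG16). Of all tested genes 44.1% were called between these lines, 17.4% higher and 26.7% lower, so the number of hosts called is not far from that among genes at large. The median log2 change of the 10 hosts was 0.84, beside -0.07 over all tested genes.

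GAS5, named for its rise in growth-arrested cells and host to the most snoRNA genes of the 10, had 175 and 386 CPM in K562, against 59.2, 52.8 and 29.5 CPM in HepG2. The 2 K562 libraries differed from each other by more than the HepG2 libraries did, yet both lay above all of HepG2. GAS5 was higher in K562 by 2.61 ± 0.35 on the log2 scale (SE, edgeR adjusted p = 1.66e-08), and by 1.85 without K562 replicate 2. SNHG1, the host of SNORD22 and of SNORD25 to SNORD31, had 130 and 200.1 CPM in K562, against 23.7, 21.1 and 44.2 CPM in HepG2. The groups did not overlap, and the log2 change was 2.48 ± 0.41 (adjusted p = 8.48e-07). SNHG6, the host of SNORD87, had 259.5 and 324 CPM in K562 and 151, 116 and 118 CPM in HepG2, again without overlap. Its log2 change was 1.18 ± 0.28 (adjusted p = 4.14e-04), and 0.97 without K562 replicate 2, under the 2-fold threshold.

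SNHG15, the host of SNORA9, had 9 and 19 reads in K562, against 0, 1 and 0 reads in the 3 HepG2 libraries. HepG2 was the line with the most reads in all, so a single read there marks a very low level. The ratio of K562 to HepG2 was 50.4, with an exact 95% counting interval of 8.32 to 2059 (edgeR adjusted p = 1.18e-06). The interval is wide because it rests on 1 HepG2 read, and it covers counting error only.

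SNHG7, the host of SNORA17A and SNORA17B, was lower in K562, with 26.0 and 55.2 CPM there against 287, 254 and 155 CPM in HepG2. The groups were far apart, at a log2 change of -2.38 ± 0.40 (adjusted p = 1.59e-06), and -3.15 without K562 replicate 2. SNHG16, the host of SNORD1A, SNORD1B and SNORD1C, had 201 and 231 CPM in K562, against 497, 613 and 332 CPM in HepG2. Its log2 change was -1.13 ± 0.28 (adjusted p = 5.56e-04) with all models counted. Over known models alone it was -0.33 (adjusted p = 0.559), and -0.13 (adjusted p = 0.826) with incomplete splice matches added. It was also under the 2-fold threshold at -0.75 with total reads as library size, -0.97 with only these 2 lines in the fit, -0.98 without K562 replicate 1, and -0.87 without HepG2 replicate 2.

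For the other 4 hosts, K562 and HepG2 did not pass both thresholds. SNHG5 had a log2 change of 0.49 with a 95% interval of 0.06 to 0.92, ZFAS1 of -0.50 with an interval of -0.99 to -0.01, and SNHG8 of 0.32 with an interval of -0.33 to 0.98. SNHG12, at 2 and 11 reads in K562 against 3, 1 and 3 in HepG2, had a log2 change of 1.64 (0.18 to 3.10, adjusted p = 0.0548). It passed with total reads as library size, at 1.99 (adjusted p = 0.0178), without K562 replicate 1, at 2.11 (adjusted p = 0.0334), and without GM12878 replicate 2, at 1.75 (adjusted p = 0.0419). Without K562 replicate 2 it was 0.52 (adjusted p = 0.802).

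**Figure D2:**
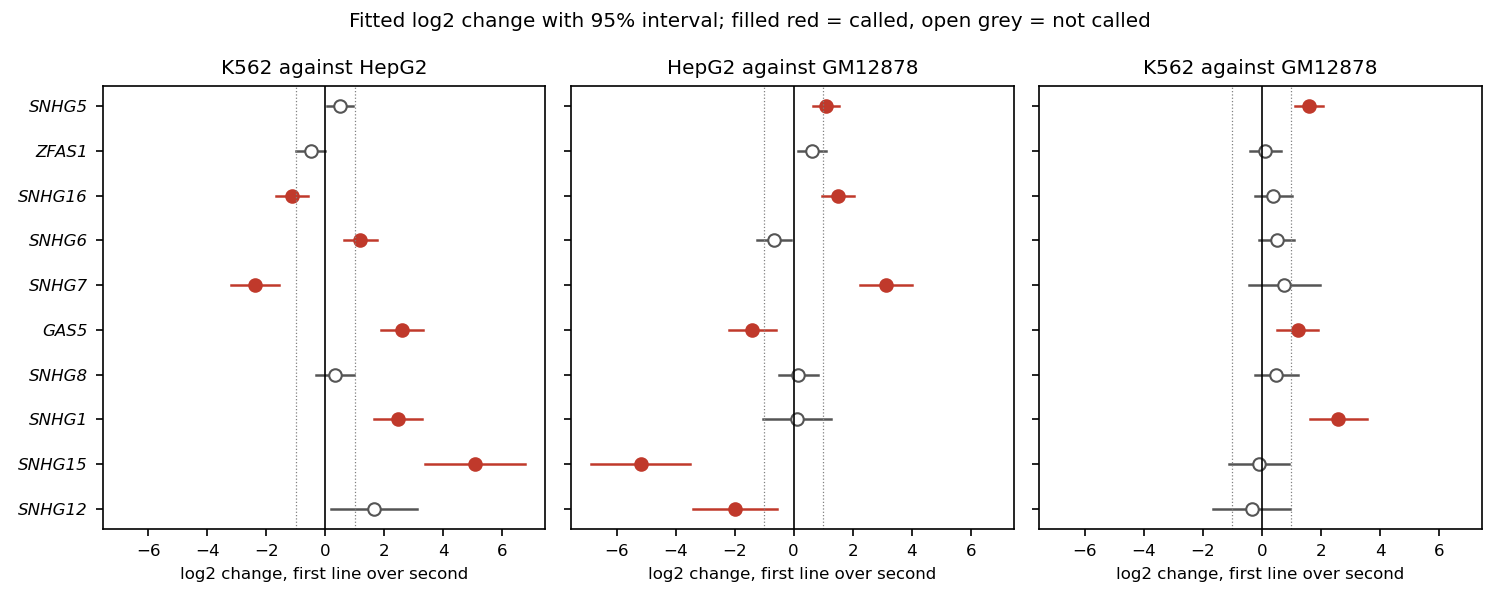
Fitted log2 change (horizontal axis) of each host gene in the 3 comparisons, where positive means higher in the line named first, with 95% intervals, filled red where called and open grey where not. SNHG15, with 1 HepG2 read, is about as far from 0 in both comparisons with HepG2 (5.08 and -5.19, no bound for the change) and near 0 between K562 and GM12878 (-0.11).

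HepG2 differed from GM12878 at 6 hosts too, with SNHG5, SNHG7 and SNHG16 higher and GAS5, SNHG12 and SNHG15 lower in HepG2. Of all tested genes 49.1% were called in this comparison, 28% higher and 21.1% lower, again near the share of hosts. The median log2 change was 0.14 for the hosts and 0.02 for all tested genes. This comparison and the one before it share the HepG2 libraries.

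SNHG7 showed the largest rise among the hosts, at 287, 254 and 155 CPM in HepG2 against 33.3, 11.6 and 42.2 CPM in GM12878. The lowest HepG2 library was still above the highest of GM12878, and the log2 change was 3.14 ± 0.44 (adjusted p = 2.02e-08). SNHG16 was higher in HepG2 as well, where its 497, 613 and 332 CPM stood against 180.0, 186 and 112 CPM in GM12878. Its log2 change of 1.51 ± 0.27 (adjusted p = 3.21e-06) was 0.97 over known models alone (adjusted p = 0.0864) and 0.44 with incomplete splice matches added (adjusted p = 0.406). SNHG5, the host of SNORD50A and SNORD50B, had 769.9, 613 and 612 CPM in HepG2, against 260.0, 343 and 337 CPM in GM12878. It was higher by 1.10 ± 0.22 (adjusted p = 2.73e-05), and by 0.97 without GM12878 replicate 1, which falls under the 2-fold threshold, as does the 0.71 found with total reads as library size.

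SNHG15 had 1 read in all of HepG2, against 6, 12 and 8 reads in GM12878. The ratio of HepG2 to GM12878 was 0.0189, with an exact 95% counting interval of 4.62e-04 to 0.115 (edgeR adjusted p = 5.24e-07). GAS5 had 59.2, 52.8 and 29.5 CPM in HepG2 and 167, 111 and 84.4 CPM in GM12878, with no overlap. Its log2 change was -1.40 ± 0.39 (adjusted p = 0.00201), and -1.09 without GM12878 replicate 1 (adjusted p = 0.0544). SNHG12, the host of SNORA16A, SNORA44, SNORA61 and SNORD99, had 3, 1 and 3 reads in HepG2 against 8, 2 and 4 reads in GM12878. It was called lower at -1.98 ± 0.71 (adjusted p = 0.0148) by edgeR and not by DESeq2 (adjusted p = 0.0579), and was at -2.61 without GM12878 replicate 2.

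The other 4 hosts were not called between HepG2 and GM12878. SNHG6 had a log2 change of -0.67 (-1.25 to -0.10) and an adjusted p of 0.0402, under the fold threshold, and was called only with total reads as library size, at -1.06. ZFAS1, at 552 ± 80.0 CPM in HepG2 and 359 ± 11.5 CPM in GM12878, had a log2 change of 0.62 (0.16 to 1.08, adjusted p = 0.0188), also under the fold threshold. SNHG8 was at 0.16 (-0.51 to 0.83) and SNHG1 at 0.12 (-1.04 to 1.28), and both changed sign with total reads as library size.

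K562 and GM12878 differed at 3 hosts, GAS5, SNHG1 and SNHG5, all higher in K562. Of all tested genes 28.7% were called between these lines, 13.9% higher and 14.8% lower, about the share of hosts called. The median log2 change was 0.50 for the hosts and 0 for all tested genes. SNHG5 had 915 and 959 CPM in K562, against 260.0, 343 and 337 CPM in GM12878. The 2 K562 libraries lay close together, and the log2 change was 1.59 ± 0.24 (adjusted p = 2.48e-07). SNHG1 had 20 and 58 reads in K562 and 6, 5 and 0 reads in GM12878, a log2 change of 2.59 ± 0.48 (adjusted p = 1.67e-05). GAS5 had 175 and 386 CPM in K562 and 167, 111 and 84.4 CPM in GM12878. The first K562 library lay just above the highest of GM12878 and the second far above it, and without the second the log2 change of 1.21 ± 0.35 (adjusted p = 0.00506) was 0.50 (adjusted p = 0.445).

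For 7 hosts K562 and GM12878 were not told apart. SNHG15, so low in HepG2, had 62.0 ± 5.06 CPM in K562 against 74.1 ± 36.4 CPM in GM12878, a log2 change of -0.11 (-1.13 to 0.91). ZFAS1 was at 0.12 (-0.40 to 0.64), the narrowest of these intervals, and SNHG12 at -0.34 (-1.64 to 0.97), the widest. SNHG16, SNHG8, SNHG6 and SNHG7 were at 0.38 to 0.76, each with an interval that included 0.

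The classes of the transcript models differed far more between host genes than between lines. TALON calls a model known when its splice junctions match an annotated transcript, an incomplete splice match when it matches part of one, a new combination when it joins annotated splice sites in a new way, unannotated when it uses a splice site not in the annotation, and genomic when it lies in a gene without matching its splicing. Known models held 53.8 and 51.7% of host reads in K562, 47.5, 43.6 and 47.1% in HepG2, and 51.9, 60.5 and 55.9% in GM12878. Over all reads of annotated genes the known share was 47.7 to 47.8% in K562, 37.9 to 41.6% in HepG2 and 44.8 to 46.1% in GM12878. Pooled over the 8 libraries, known reads ranged from 214 of 244 in SNHG8 (87.7%) and 799 of 1083 in SNHG5 (73.8%) to 18 of 227 in GAS5 (7.93%), 6 of 217 in SNHG7 (2.76%) and 1 of 113 in SNHG1 (0.885%). Across 2935 genes with at least 100 reads the median known share was 31.3%.

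**Figure D3:**
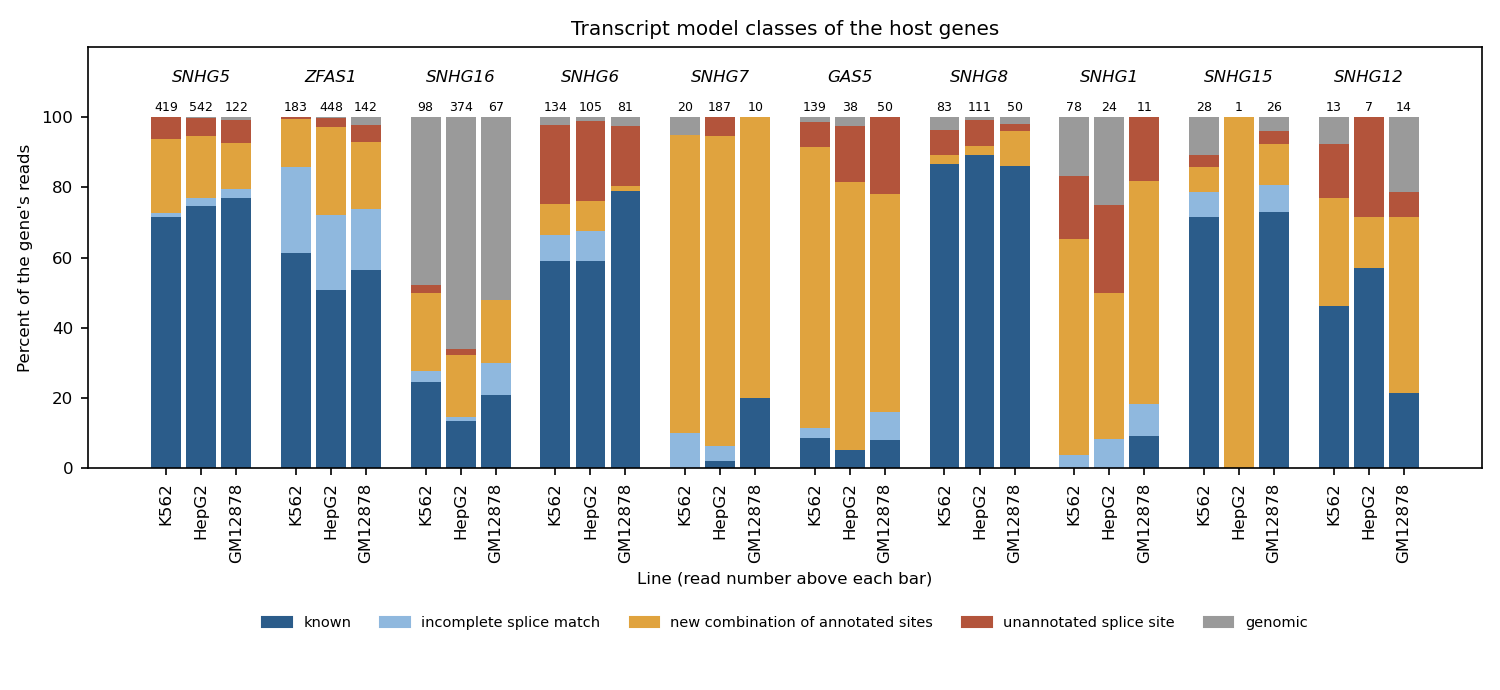
Percent of each host gene's reads (vertical axis) in the 5 model classes, by host gene and line, with the read number above each bar. The main class of the well-read hosts is the same in the 3 lines: known in SNHG5, ZFAS1, SNHG6 and SNHG8, new combinations in SNHG7 and GAS5, and genomic in SNHG16.

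SNHG5 was read mainly as 2 known transcripts in nearly fixed proportion. SNHG5-202, with 6 exons, had 410 reads, and SNHG5-201, with 5 exons, had 347. SNHG5-201 took 31.9 and 31.3% of the gene's reads in the K562 libraries, 31.9, 31.9 and 31.3% in HepG2, and 38.5, 35.6 and 29.2% in GM12878. The libraries of K562 and HepG2 lay within about 1 point of each other, and those of GM12878, with fewer reads, spread around them. SNHG5-201 keeps the first intron of 505 bases that SNHG5-202 removes between chr6:85678694 and chr6:85678188 on the minus strand. The 20 bases before the donor are in lower case and the 20 bases that follow in the RNA in capitals.
SNHG5-202: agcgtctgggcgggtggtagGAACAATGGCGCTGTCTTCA
SNHG5-201: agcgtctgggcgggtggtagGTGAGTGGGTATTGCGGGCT
The kept stretch begins with GTGAG, the start of the unused intron. Neither SNORD50A nor SNORD50B lies in that intron, and both lie in later introns that the 2 transcripts remove alike.

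ZFAS1, transcribed from the opposite strand at the start of ZNFX1, a gene of innate antiviral defence, was read as 3 known transcripts that differ by cassette exons. ZFAS1-205 had 212 reads, ZFAS1-202 120 and ZFAS1-203 62. ZFAS1-205 leaves out the 62-base exon 4 of ZFAS1-202 at chr20:49280903-49280964, and ZFAS1-203 also leaves out the 86-base exon 3. The first sequence gives exon 4 in capitals with 10 bases of each neighbour, and the second the junction of ZFAS1-205 that skips it, with the downstream exon in capitals.
ZFAS1-202: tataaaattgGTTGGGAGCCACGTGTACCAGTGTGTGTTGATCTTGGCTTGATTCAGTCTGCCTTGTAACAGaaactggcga
ZFAS1-205: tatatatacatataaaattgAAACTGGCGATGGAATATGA
Of reads in its frequent known transcripts, ZFAS1-202 took 39.3% in K562 and 23.6% in HepG2, a shift that was not called (diffSpliceDGE adjusted p = 0.861). A further 166 ZFAS1 reads (21.5%) were incomplete splice matches, all of the kind that lacks the 5' end. Over the 10 hosts 241 of 246 incomplete splice match reads were of that kind. In addition, 133 reads came from 1 new combination of 3 exons.

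SNHG8, an H/ACA host whose single snoRNA is SNORA24, was mostly read as 3 known transcripts that differ in their first exon. SNHG8-201, with a first exon of 429 bases, had 138 reads. SNHG8-203, which uses a donor 84 bases into that exon, had 50, and SNHG8-205, with a further intron inside it, had 23. The sequences show the 20 bases before the donor at chr4:118278792 and, in capitals, the 20 bases that follow it in each RNA.
SNHG8-203: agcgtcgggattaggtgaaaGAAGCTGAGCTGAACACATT
SNHG8-201: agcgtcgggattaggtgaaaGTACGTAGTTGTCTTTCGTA
SNHG8-201 had 8 and 31 reads in K562, 33, 26 and 25 in HepG2, and 6, 6 and 3 in GM12878. SNHG8-203 had 4 and 11 reads in K562, 9, 0 and 2 in HepG2, and 5, 18 and 1 in GM12878. Of reads in the frequent known transcripts, SNHG8-201 averaged 60.5% in K562, 86.4% in HepG2 and 42.5% in GM12878. The shift of 43.9 points between HepG2 and GM12878 had an adjusted p of 0.0686 and was not called, and that of -25.9 points between K562 and HepG2 had an adjusted p of 0.434. Between HepG2 and GM12878 the call appeared without K562 replicate 1 (adjusted p = 0.0107), without K562 replicate 2 (0.00532), without HepG2 replicate 1 (0.0328) or with transcripts of at least 1 read (0.0420). In GM12878 replicate 2 alone SNHG8-203 had more reads than SNHG8-201.

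**Figure D4:**
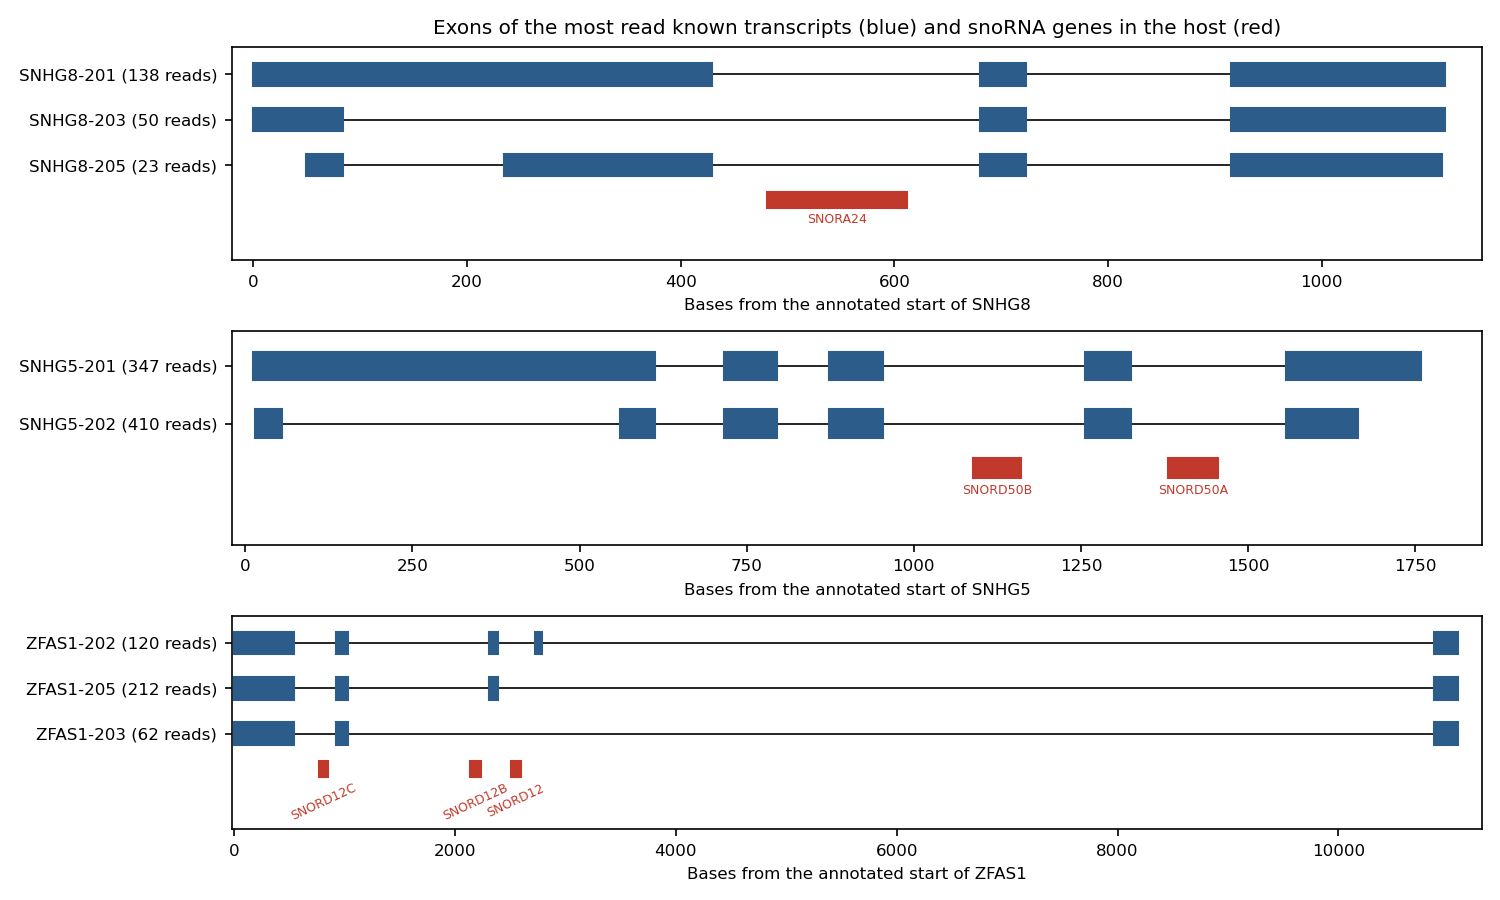
Exons (blue) of the most read known transcripts of SNHG8, SNHG5 and ZFAS1, drawn to scale by distance in bases from the annotated start of the gene (horizontal axes), with the snoRNA genes in red. Every snoRNA gene drawn lies in an intron of every transcript drawn, also where SNHG5-201 keeps its first intron and SNHG8-201 its long first exon.

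No host was called for transcript usage in any comparison by edgeR's diffSpliceDGE, with 4 hosts tested (SNHG5, SNHG6, SNHG8 and ZFAS1). At an unadjusted p under 0.05, 1 host (SNHG8) passed in K562 against HepG2, 1 (SNHG8) in HepG2 against GM12878 and 0 in K562 against GM12878. Of 676 genes tested, 0.888%, 1.63% and 0.592% were called in these comparisons. The share of reads in known models was not called for any of 6 hosts either, where 0.0756%, 0.378% and 0.151% of 2647 genes were. Unadjusted, 1 host passed in each comparison. SNHG16 had a known share of 22.2% in K562 and 13.2% in HepG2 (adjusted p = 0.526). SNHG6 had 58.9% in HepG2 against 80.2% in GM12878 (adjusted p = 0.321), and 61.4% in K562 against the same 80.2% (adjusted p = 0.941).

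SNHG6, at chr8:66921684-66926398 on the minus strand, was read chiefly as SNHG6-203, with 4 exons and 170 of 320 reads. A model of 4 exons with a splice site outside the annotation had 44 reads in all 8 libraries, 5 and 16 in K562, 8, 2 and 4 in HepG2, and 2, 6 and 1 in GM12878. SNHG15 had 28 of 55 reads in SNHG15-203, 15 of them in K562 and 13 in GM12878. The single HepG2 read of SNHG15 was in a new combination and in no known transcript. SNHG12 had 34 reads in 20 models, too few to describe by line.

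SNHG16 stood out by models of 1 exon, with 329 of 539 reads (61.0%) in 6 such genomic models, 648 to 2220 bases long. The share was 54.8 and 44.8% in K562, 64.9, 73.3 and 58.9% in HepG2, and 63.0, 40.6 and 62.5% in GM12878. HepG2 and GM12878 overlapped, and K562 lay below HepG2 in both libraries. Of 2935 genes with at least 100 reads, 210 had a higher genomic share, and the median was 1.60%. The 2 most read of these models had 116 and 115 reads. SNHG16-202, the most read known transcript with 79 reads, ends in an exon of 2225 bases, about as long as the longest of the 1-exon models. Where these models begin and end was not analysed here. SNHG16 overlaps the protein-coding gene AC015802.6 on the opposite strand over 1639 bases, and the part of that gene in these reads was not tested.

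SNHG7 was read almost wholly as RNA that the annotation does not list. New combinations held 190 of 217 reads (87.6%), and only 5 of the 2935 genes had a higher share. A single model of 4 exons and 904 bases had 138 reads, of which 2 and 10 were in K562, 69, 30 and 21 in HepG2, and 3, 1 and 2 in GM12878. It was the most read model of the gene in the 3 lines, at 60% of reads in K562, 64.2% in HepG2 and 60% in GM12878. A second model, of 2 exons and 626 bases, had 4 reads in K562, 31 in HepG2 and 0 in GM12878. Only 2 annotated transcripts had a read, 6 reads together. FAM69B overlaps SNHG7 on the opposite strand, and its part in these reads was not tested.

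GAS5 and SNHG1 had the most transcript models for their reads among the hosts. GAS5 had 156 models for 227 reads, 130 of them with a single read, and its most read model had 14. Its reads had 8.87 exons on average in 630 bases. SNHG1 had 78 models for 113 reads, 70 of them with a single read. Whether the models with a single read are distinct RNAs or errors of reading or alignment was not tested. Thinned to 100 reads, GAS5 would show 77.6 models and SNHG1 69.9, against a median of 21.5 over 2935 genes. Only 5 genes were above GAS5 and 21 above SNHG1. The other 6 hosts with at least 100 reads lay between 12.4 (SNHG8) and 22.0 (SNHG5). The most read SNHG1 model was a genomic model of 1 exon, 619 bases long. It had 4 and 9 reads in K562, 3, 1 and 1 in HepG2, and 0 in each GM12878 library. Where it begins and ends was not analysed, so a part of a spliced RNA cannot be told from an unspliced one.

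**Figure D5:**
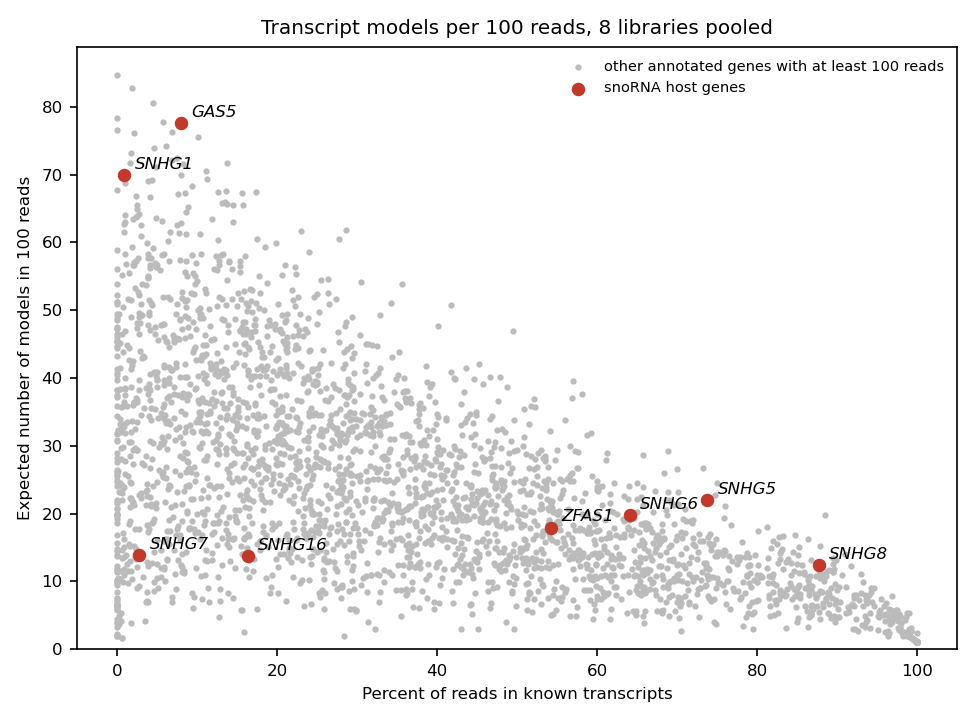
Expected number of models in 100 reads (vertical axis) against the percent of reads in known transcripts (horizontal axis) for 2935 genes with at least 100 reads, 8 libraries pooled, host genes in red and other genes in grey. GAS5 (77.6) and SNHG1 (69.9) lie at the upper left, SNHG8 (12.4) at the lower right, and SNHG7 (13.9) and SNHG16 (13.8) combine few models with few known reads.

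Among reads of known transcripts, few fell in those with a whole snoRNA gene inside an exon. The exons of all other models were not placed, so the shares below do not cover them. Left out in this way were, among others, the 329 genomic reads of SNHG16. Of 227 GAS5 reads only 18 were in known transcripts, and of 113 SNHG1 reads only 1. Of 48 known transcripts of the hosts with a read, 13 hold such a gene, and these had 30 of 1802 known reads, 1.66% with an exact 95% binomial interval of 1.13 to 2.37%. By line the share was 1.92% in K562 (0.996 to 3.33%), 1.06% in HepG2 (0.484 to 1.99%) and 2.78% in GM12878 (1.28 to 5.21%). Counting any overlap of an exon with a snoRNA gene, 46 reads (2.55%) fell in 17 transcripts. Reads of a line share its libraries, so the intervals cover counting error only and the lines were not tested against each other. Of the 30 reads, SNHG16-201 had 9, SNHG12-202 6 and SNHG15-202 4. The most read known GAS5 transcripts, GAS5-221 with 9 reads and GAS5-218 with 5, hold none of its 11 snoRNA genes whole and share 2 bases with the edge of SNORA103. The 3 most read transcripts of ZFAS1, the 3 of SNHG8 and the 6 of SNHG5 with the most reads overlap none.

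The promoters share features that the choice of genes did not use. RefSeq promoter sequences on GRCh38.p14 were searched for 8 hosts. None was found for SNHG15, and SNHG6 was left out of the search. A TATA motif, TATATAA or TATAAA beginning 45 to 20 bases before the start on the gene's strand, was present in 4 of the 8, SNHG5, SNHG7, SNHG12 and ZFAS1, and in 2.79% of 35116 promoters. A C followed by at least 4 letters C or T, beginning within 5 bases of the start on the same strand, was present in 6 of the 8, the same 4 with SNHG8 and SNHG16, and in 21.1% of promoters. Both were present in the 4 hosts and in 0.589% of promoters. The 4 are shown from 45 bases before the start, with both motifs in capitals, because they hold both. Coordinates are chr6:85678709-85678778 on the minus strand for SNHG5, chr9:136728160-136728229 on the minus strand for SNHG7, chr1:28581849-28581918 on the minus strand for SNHG12 and chr20:49278597-49278666 on the plus strand for ZFAS1.
SNHG5: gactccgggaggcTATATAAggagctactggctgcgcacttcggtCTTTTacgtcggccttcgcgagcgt
SNHG7: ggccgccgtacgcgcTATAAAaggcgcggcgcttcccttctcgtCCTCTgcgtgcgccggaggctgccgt
SNHG12: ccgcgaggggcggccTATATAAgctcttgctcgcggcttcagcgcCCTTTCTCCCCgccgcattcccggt
ZFAS1: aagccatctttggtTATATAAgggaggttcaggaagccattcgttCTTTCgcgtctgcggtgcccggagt
Of these 4 hosts, SNHG5 and SNHG7 were called higher in HepG2 than in GM12878 and SNHG12 lower. SNHG5 was also called higher in K562 than in GM12878, and SNHG7 lower in K562 than in HepG2. ZFAS1 was not called in any comparison. The starts searched are those of RefSeq and need not be those of the RNAs read. The window of GAS5 held neither motif. Its RefSeq start lies 163 bases from the nearest annotated start in GENCODE, that of GAS5-209, which had no read. The most read known GAS5 transcript, GAS5-221, begins 895 bases into the annotated gene. The start searched for SNHG1 is that of SNHG1-209, also without a read. For ZFAS1 it is that of ZFAS1-201, with 12 reads, whereas ZFAS1-205, with 212, begins at the start of the annotated gene.

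Other genes of the pathway were taken from lists chosen with results of these data known, so their counts are descriptions. Of 20 names of other noncoding snoRNA hosts, 17 were in the tables and 5 were tested. SNHG3 was higher in K562 than in HepG2 (144 ± 20.4 CPM against 31.7 ± 11.8 CPM, log2 change 2.11, adjusted p = 9.07e-06) and than in GM12878 (24.4 ± 11.3 CPM, log2 change 2.64, adjusted p = 1.99e-05). C6orf48, the host of SNORD48 and SNORD52, was higher in HepG2 than in GM12878 (359.8 ± 33.1 CPM against 97.8 ± 24.3 CPM, log2 change 1.81, adjusted p = 0.00351). It was higher in K562 than in GM12878 too (683 ± 571 CPM against 97.8 ± 24.3 CPM, log2 change 2.77, adjusted p = 2.89e-04). The K562 libraries of C6orf48 were far apart. LRRC75A-AS1, the most abundant of the 5 over the 3 lines, was not called in any comparison over all models, at 678 CPM in K562, 632 in HepG2 and 462 in GM12878, but was lower in K562 than in HepG2 over known models only (log2 change -1.42). In all, K562 against HepG2 had 1 of 5 higher and 0 lower, HepG2 against GM12878 1 higher and 0 lower, and K562 against GM12878 2 higher and 0 lower. Among all tested genes 17.4, 28 and 13.9% were higher in these comparisons and 26.7, 21.1 and 14.8% lower.

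The 8 core proteins of snoRNA particles were all tested. In HepG2 against GM12878, 0 were higher and 4 lower: GAR1 and NHP2 of the H/ACA particle and NOP56 and NOP58 of the C/D particle, beside 28% higher and 21.1% lower among all tested genes. Their median log2 change was -1.09 beside 0.02 over all tested genes. GAR1 showed the largest difference, at 20.1 ± 1.46 CPM in HepG2 against 113 ± 20.2 CPM in GM12878 (log2 change -2.47, adjusted p = 2.73e-05). NOP56 was at 85.3 ± 12.0 CPM in HepG2 against 303 ± 51.1 CPM in GM12878 (log2 change -1.79, adjusted p = 8.23e-07). In K562 against HepG2, 3 were higher (GAR1, NHP2 and the methyltransferase FBL) and 0 lower, beside 17.4% and 26.7% among all tested genes. FBL, the most abundant, was at 978 ± 94.7 CPM in K562 against 471 ± 59.5 CPM in HepG2 (log2 change 1.05, adjusted p = 3.59e-05, and 0.81 over known models with incomplete splice matches). SNU13, the next most abundant, was not called. In K562 against GM12878, NOP56 alone was called, lower in K562 at a log2 change of -1.15 (adjusted p = 0.00440), which was -0.96 without the low-count filter.

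Of 10 assembly factors of these particles 5 were tested. RUVBL2, an ATPase of the R2TP complex, was at 479 ± 98.8 CPM in K562, against 145 ± 5.03 CPM in HepG2 (log2 change 1.73, adjusted p = 1.72e-07) and 185 ± 37.5 CPM in GM12878 (log2 change 1.34, adjusted p = 9.82e-05). NOLC1, a nucleolar chaperone of snoRNA particles, was lower in HepG2 than in GM12878 (44.9 ± 2.85 CPM against 144 ± 20.7 CPM, log2 change -1.65, adjusted p = 3.42e-04) and higher in K562 than in HepG2 (169.6 ± 118 CPM against 44.9 ± 2.85 CPM, log2 change 1.79, adjusted p = 1.71e-04). PIH1D1 was also called, higher in K562 than in GM12878 (log2 change 1.03, edgeR adjusted p = 0.0231, DESeq2 adjusted p = 0.0876). Of 12 nonsense-mediated decay factors 3 were tested, and 1 call was made, NBAS higher in K562 than in HepG2 (75.3 ± 78.9 CPM against 21.03 ± 7.38 CPM, log2 change 1.97, edgeR adjusted p = 0.00212, DESeq2 adjusted p = 0.0604). The K562 libraries of NBAS were far apart, with an SD above their mean. UPF1, the central helicase of nonsense-mediated decay, and SMG5 were not called.

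A further list held 16 messenger RNAs outside the ribosome known to begin with a terminal oligopyrimidine tract, among them translation factors such as EEF1A1. All 16 were tested and most were not called, beside 44.1% of all tested genes called in K562 against HepG2, 49.1% in HepG2 against GM12878 and 28.7% in K562 against GM12878. K562 against HepG2 had 1 higher (VIM) and 1 lower (TPT1), HepG2 against GM12878 had 1 higher (TPT1) and 2 lower (NAP1L1 and VIM), and K562 against GM12878 had 0 of either. TPT1 was at 1299 ± 158 CPM in K562, 5218 ± 415 CPM in HepG2 and 2485 ± 347 CPM in GM12878. VIM, which encodes an intermediate filament protein, had 632 ± 453 CPM in K562, no read in HepG2 and 412 ± 57.4 CPM in GM12878. The difference of TPT1 between HepG2 and GM12878, at a log2 change of 1.06, was 0.68 with total reads as library size, and that of NAP1L1, at -1.03, was -0.98 with DESeq2's size factors, both under the 2-fold threshold. EEF1A1 and RACK1, the most abundant, were not called in any comparison.

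For the 3 most read hosts, the genes with the most similar profile over the 8 libraries were sought by the root mean square difference of log2 CPM centred per gene. For SNHG5 these were NET1 at 0.17, TOMM7 at 0.19 and TOMM20 at 0.20, beside a median of 1.04 over all tested genes. TOMM7 averaged 835 CPM in K562, 541 in HepG2 and 334 in GM12878. For ZFAS1 they were EEF1A1 at 0.09, LDHA at 0.11 and MRPS27 at 0.12, beside a median of 0.85. For SNHG16 they were ARFGAP1 at 0.14, CENPB at 0.20 and WTAP at 0.24, beside a median of 1.09. EEF1A1 was also on the list of oligopyrimidine messenger RNAs. The measure is a description over 8 libraries of 3 lines, with the closest chosen among 4778 genes.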

How the data were processed

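Native RNA reads of 8 libraries were summarised by the authors as TALON abundance tables, per the labels, with minimap2 and the hg38 build named in the submitters' processing notes. The deposited values are raw read counts per transcript model, not normalized, and no TALON version is given. Counts of all models of an annotated gene were summed, filtered with filterByExpr and tested in 1 fit over the 3 lines with edgeR 4.0.16 (TMM, glmQLFit robust, glmQLFTest, two-sided, R 4.3.3), with Benjamini-Hochberg adjustment over 4778 genes per comparison. CPM are TMM-scaled over tested genes. diffSpliceDGE tested transcript usage (known transcripts of 10 or more reads) and the known-model share (known against other reads). Both needed an adjusted p under 0.05 and a shift of 10 points or more. DESeq2 1.42.0, other scalings, filters, model sets and leaving out each library were alternatives. Columns of per-sample values not mapped to a library numbered 0.

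The host genes and gene lists were chosen with earlier results of these data known. Named were the 10 hosts, the most read known transcripts and the 3 nearest profiles of the 3 most read hosts. Of each list, the 2 most abundant and the 2 most changed called members were named. NHP2, NOP58 and NAP1L1 were named after their values were seen, to complete counts. List genes that total reads as library size added were also named after their values were seen. Gene and exon coordinates are from GENCODE release 29 (GRCh38), and snoRNA names and promoters from RefSeq (GRCh38.p14). The fits were checked on simulated data. At an adjusted p under 0.05, without the fold threshold that a call also needs, 34% of 2-fold changes were found in K562 against HepG2. The share was 27% in HepG2 against GM12878 and 24% in K562 against GM12878. For 4-fold changes it was 76, 78 and 66% in the same order. A host that was not called may therefore still differ.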

Additional observations from a re-analysis of the deposited data

How the results depend on the processing

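Under other scalings, filters and tests, and with only the 2 lines compared in the fit, 5 to 6 hosts were called in K562 against HepG2, 4 to 6 in HepG2 against GM12878 and 3 in K562 against GM12878. Known models only, like known models with incomplete splice matches, left 6 hosts with enough reads to test (all but GAS5, SNHG1, SNHG7 and SNHG12), of which 2 were called in K562 against HepG2, 2 in HepG2 against GM12878 and 1 in K562 against GM12878. Leaving out 1 library gave 5 to 7, 3 to 6 and 2 to 3 calls, and the 3 is that without GM12878 replicate 1. With total reads as library size the median of all genes moved to 0.23 in K562 against HepG2 and to -0.31 in HepG2 against GM12878. The split of calls became 1235 higher and 1027 lower in K562 against HepG2, against 830 and 1275 with TMM, and 1091 and 1420 in HepG2 against GM12878, against 1338 and 1010. Without a low-count filter 3298 genes were called in K562 against HepG2 and 3746 in HepG2 against GM12878, against 2105 and 2348. Known models only gave 714, 777 and 459 called genes in the 3 comparisons, and known models with incomplete splice matches 1251, 1351 and 805, against 2105, 2348 and 1371. No called gene of the pathway lists turned its direction under any scaling, filter, model set or test run. Total reads as library size added FBL to the core proteins lower in HepG2 than in GM12878, at -1.18. In K562 against HepG2 that scaling added, all higher, the core proteins DKC1 (1.32) and NOP56 (1.04) and the assembly factor RUVBL1 (1.28). It also added the other snoRNA hosts C6orf48 (1.31) and EPB41L4A-AS1 (1.14). From the oligopyrimidine list came NAP1L1 (1.29), HNRNPA1 (1.23), EIF3H (1.11) and PABPC1 (1.10). DKC1 also passed without a low-count filter (1.03) and with only these 2 lines in the fit (1.11).

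Transcript usage gave 1 call, SNHG8, in HepG2 against GM12878 with transcripts of at least 1 read, and 0 to 1 when 1 library was left out. With known models only the summed share of host reads was 0.134% in K562, 0.0796% in HepG2 and 0.0808% in GM12878. Counting incomplete splice matches as known, 59.0%, 53.3% and 63.1% of host reads were known in these lines.

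Signs turned for differences that were not called. With total reads as library size SNHG1 had -0.25 and SNHG8 -0.22 in HepG2 against GM12878, and SNHG15 in K562 against GM12878 had 0.067 without a filter and 0.090 with the replicate block. With incomplete splice matches as known, the known-share shift was -0.50 points for SNHG6 in K562 against HepG2 and -1.83 for SNHG16 in K562 against GM12878. Leaving out 1 library, SNHG8 ranged over -0.54 to 0.81 in K562 against HepG2, -0.034 to 0.51 in HepG2 against GM12878 and -0.34 to 0.94 in K562 against GM12878. In HepG2 against GM12878 SNHG1 ranged over -0.21 to 0.55, and in K562 against GM12878 ZFAS1 over -0.30 to 0.47, SNHG12 over -1.41 to 0.11 and SNHG15 over -0.35 to 0.24. The known-share shift ranged over -5.03 to 8.62 points for SNHG6 in K562 against HepG2 and -2.35 to 9.88 for SNHG16 in K562 against GM12878. The cause was not tested.

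Same-numbered libraries of different lines did not deviate together (correlations of -0.05 to 0.04), so the numbers were not taken as pairs. With the replicate block 6, 6 and 3 hosts were called, and 1998, 2309 and 1291 genes in all. Hosts with under 60 reads, SNHG12 and SNHG15, are limited by depth.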
